A study of Rattus norvegicus with 9 samples.

Results

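Type I interferon antiviral genes are described here in rat tibia through 10 genes chosen by symbol: Irf7, Ifit1, Ifit2, Ifit3, Rsad2, Oasl, Mx1, Mx2, Isg15 and Usp18. All 10 had a row of their own among the 23768 genes of the count table. All 10 were also among the 16816 genes that passed the filter on low counts.

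Tibia RNA came from male Sprague Dawley rats and was sequenced in 3 groups of 3 libraries. They were PMLGH (replicates 2, 3 and 4), GelMA (replicates 2, 3 and 4) and Model (replicates 1, 2 and 5). The study's title names a peptide that imitates the enzyme lysyl oxidase and bone healing in diabetes. GelMA commonly stands for gelatin methacryloyl, a modified gelatin that sets as a hydrogel, while the labels neither spell out PMLGH nor say what was done to Model. Age, time of sampling and whether each library is a separate animal are not given either, so the p-values measure only the spread between these libraries, which may be technical. Total counts were 34571478 to 37166383 per library, and all 12 markers of bone cells in the list used here, such as Col1a1, passed the filter on low counts.

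Type I interferons are secreted proteins that cells make after sensing viral nucleic acid, or their own when it reaches the wrong compartment. They bind the receptor of Ifnar1 and Ifnar2, whose kinases Jak1 and Tyk2 activate transcription factors, among them Stat2, which acts with Irf9 on a short DNA element called the ISRE in front of antiviral genes. In bone, type I interferon is known as a brake on osteoclast formation. Among the 10 genes, Irf7 is the factor that amplifies interferon production, the Ifit proteins bind viral RNA, Rsad2 makes a nucleotide analogue that ends viral RNA chains, and Oasl belongs to the oligoadenylate synthetase family. Mx1 and Mx2 are dynamin-like GTPases, Isg15 is a small protein attached to other proteins much as ubiquitin is, and Usp18 removes Isg15 and damps the receptor.

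The 10 genes did not move as a block. In PMLGH against Model, Ifit2, Ifit3 and Oasl rose and Ifit1 and Rsad2 fell. In GelMA against Model, Ifit2 and Ifit3 rose and Ifit1, Rsad2 and Irf7 fell. No member passed the test in PMLGH against GelMA. The largest called differences were the fall of Ifit1 in GelMA, to 0.336 of Model, and the rise of Ifit3 in PMLGH, to 1.87 times Model.

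Sequence in front of the start site was at hand for 5 of the 10 genes (Irf7, Ifit3, Rsad2, Mx1 and Oasl), from RefSeq promoters of rat build GRCr8. The authors' build is not given in the sources used here. Each window held 250 bases before the start and 50 after it, and the core of the ISRE was searched on both strands as GAAA, any 2 bases, GAAA. It was found in Irf7, Ifit3 and Rsad2, 3 of 5, and in 3.92% of the 33469 windows of all genes. The 250 bases before the start are shown for these 3 because they carry the element through which the pathway is read, although Ifit3 rose and Rsad2 fell. Capitals mark the ISRE core, which lies on the strand opposite to the gene in all 3 and is written here as the gene's strand reads it.
Irf7, chr1:205800024-205800273, minus strand: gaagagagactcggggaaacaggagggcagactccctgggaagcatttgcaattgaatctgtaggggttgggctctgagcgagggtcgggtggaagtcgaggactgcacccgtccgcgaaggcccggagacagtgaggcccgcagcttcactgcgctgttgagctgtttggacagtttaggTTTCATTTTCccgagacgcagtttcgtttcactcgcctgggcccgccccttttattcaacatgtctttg
Ifit3, chr1:241527076-241527325, plus strand: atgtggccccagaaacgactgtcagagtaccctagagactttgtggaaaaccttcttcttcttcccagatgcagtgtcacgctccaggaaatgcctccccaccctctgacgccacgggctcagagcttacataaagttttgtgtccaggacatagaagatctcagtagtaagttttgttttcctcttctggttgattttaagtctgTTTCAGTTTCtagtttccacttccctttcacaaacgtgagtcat
Rsad2, chr6:48788121-48788370, minus strand: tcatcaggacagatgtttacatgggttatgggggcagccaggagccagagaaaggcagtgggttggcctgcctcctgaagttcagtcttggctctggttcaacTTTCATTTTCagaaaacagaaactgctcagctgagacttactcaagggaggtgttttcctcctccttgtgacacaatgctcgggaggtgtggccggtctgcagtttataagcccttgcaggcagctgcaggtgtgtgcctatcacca

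The core ended 34 bases before the start of Ifit3, 59 before that of Irf7 and 137 before that of Rsad2. Its letters on the gene's strand were TTTCATTTTC in both Irf7 and Rsad2 and TTTCAGTTTC in Ifit3. Longer forms were also searched: the core followed by C matched 2 of 5 windows (Irf7 and Ifit3) and 0.881% of all windows, and the core followed by CT matched 0 of 5 and 0.278%. The letters TTC, any 3 bases, GAA, an element known from interferon-gamma targets, matched 0 of 5 windows and 8.87% of all. These matches describe the letters in these windows and no binding was measured.

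Levels of different genes are compared as FPKM, fragments scaled to gene length and library total. Rsad2 was by far the most abundant member, at 199 ± 50.9 FPKM over the 9 libraries (SD, n = 9), above 98.7% of the genes with counts. Irf7 followed at 62.1 ± 16.3 FPKM and Ifit1 at 55.4 ± 29.5 FPKM (SD, n = 9 each). Their ranges, 34.6 to 90.2 FPKM for Irf7 and 20.5 to 109 FPKM for Ifit1, overlapped widely, and Irf7 was above Ifit1 in 6 of 9 libraries. Isg15 averaged 19.3 FPKM and Ifit3 18.5 FPKM, with Isg15 the higher in only 4 of 9 libraries. Below them stood Ifit2 at 10.8, Oasl at 9.21, Mx1 at 6.56, Usp18 at 6.23 and Mx2 at 3.08 FPKM. Of these neighbours in the order, only Rsad2 and Irf7 had ranges that did not overlap.

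**Figure D1:**
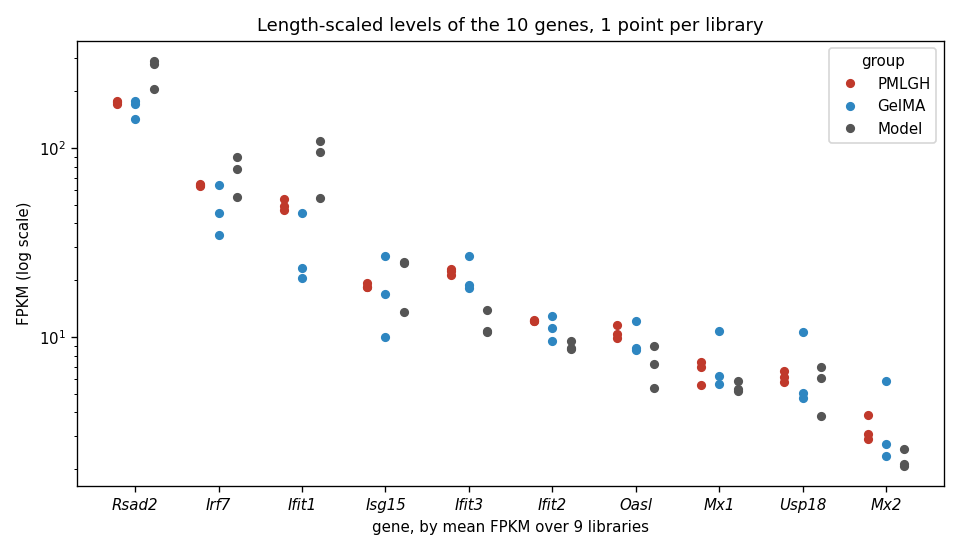
FPKM (log axis) of the 10 genes, ordered by their mean over 9 libraries, with 1 point per library and the groups PMLGH, GelMA and Model side by side. Rsad2 stands apart from the other genes, at 143 to 290 FPKM, and Mx2 is lowest, at 2.08 to 5.90 FPKM.

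Differences of 1 gene between libraries are given below as CPM, counts scaled to a TMM-adjusted library total, and tests are edgeR's quasi-likelihood test with Benjamini-Hochberg adjustment over all 16816 genes. A log2 fold change is followed by its SE. The fit holds 1 spread per gene for all 3 groups, so SE and p also depend on the group that is not compared. In whole-tissue RNA a lower level from fewer cells of a type and one from less RNA per cell cannot be told apart.

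Irf7, the amplifying factor, had 136, 133 and 136 CPM in PMLGH 2, 3 and 4, 95.1, 71.3 and 132 CPM in GelMA 2, 3 and 4, and 166, 117 and 192 CPM in Model 1, 2 and 5. PMLGH lay above every GelMA library, only just above GelMA 4, and inside the range of Model, while GelMA and Model overlapped through GelMA 4 and Model 2. In GelMA against Model, Irf7 fell by 0.67 ± 0.18 on the log2 scale (edgeR adjusted p = 0.0139). That call was lost in 5 of 17 alternative settings, among them without GelMA 3 (-0.50) and without Model 5 (-0.52). PMLGH against Model gave -0.23 ± 0.18 (edgeR adjusted p = 0.365), which became a called fall of -0.44 without Model 2 and stood at -0.09 without Model 5. PMLGH against GelMA gave 0.44 ± 0.18 (edgeR adjusted p = 0.244) and ran from 0.25 without GelMA 3 to a called 0.69 without GelMA 4, with adjusted p of 0.0113 to 0.607 over 18 alternatives.

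Ifit1, which binds RNA lacking the host's cap marks, had 102, 97.0 and 112 CPM in PMLGH, 93.6, 47.3 and 41.4 CPM in GelMA, and 202, 112 and 228 CPM in Model. All 3 GelMA libraries were below all 3 Model libraries, and also below all 3 PMLGH libraries. PMLGH and Model met only at PMLGH 4 and Model 2, with 112 CPM each. The fall in GelMA against Model was -1.57 ± 0.26 (edgeR adjusted p = 0.00056) and held in 17 of 17 alternatives, from -2.03 to -1.38. The fall in PMLGH against Model was -0.80 ± 0.25 (edgeR adjusted p = 0.0296), and it was lost in 9 of 17 alternatives, including DESeq2 and the loss of any 1 PMLGH library, of Model 1 or of Model 5, with values of -1.08 to -0.62 and adjusted p of 0.00041 to 0.191. PMLGH against GelMA gave 0.77 ± 0.26, with a 95% interval of 0.22 to 1.33 (edgeR adjusted p = 0.134). It was called in 5 of 18 alternatives, among them without GelMA 2 (1.23) and without Model 2 (0.77).

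Ifit2, a partner of Ifit1 and Ifit3 in the same protein complex in human cells, had 41.5, 41.5 and 42.9 CPM in PMLGH, 32.8, 37.2 and 43.0 CPM in GelMA, and 30.4, 32.9 and 30.1 CPM in Model. PMLGH was above Model in every library, whereas GelMA 2 lay just under Model 2. Ifit2 rose in PMLGH against Model by 0.43 ± 0.09 (edgeR adjusted p = 0.0019), and the call held in 17 of 17 alternatives. The rise in GelMA against Model was 0.28 ± 0.09 (edgeR adjusted p = 0.0338). It was lost in 7 of 17 alternatives, among them without GelMA 3 (0.26), GelMA 4 (0.15), Model 1 (0.26) or Model 5 (0.24).

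Ifit3, which stabilizes the complex with Ifit1 in human cells, had 45.6, 43.8 and 47.6 CPM in PMLGH, 37.4, 38.0 and 53.7 CPM in GelMA, and 22.2, 22.2 and 28.9 CPM in Model. Both PMLGH and GelMA lay wholly above Model. The rise was 0.90 ± 0.13 in PMLGH against Model (edgeR adjusted p = 0.000128) and 0.82 ± 0.13 in GelMA against Model (edgeR adjusted p = 0.00041). Both calls held in 17 of 17 alternatives. PMLGH against GelMA gave 0.09 ± 0.13, with a 95% interval of -0.18 to 0.36.

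The Ifit genes therefore split, with Ifit1 lower and Ifit2 and Ifit3 higher than Model in both PMLGH and GelMA. In the RefSeq order of genes Ifit2, Ifit3 and the related Ifit1bl are direct neighbours on chromosome 1. Ifit1 is on the same chromosome, between LOC120100208 and Slc16a12. Only direct neighbours were looked up, so its distance from the other Ifit genes is not given. Ifit1bl averaged 101 ± 8.34 CPM in PMLGH, 111 ± 7.39 CPM in GelMA and 79.0 ± 4.07 CPM in Model (SD, n = 3 each). It rose in both PMLGH (0.36 ± 0.07, edgeR adjusted p = 0.00165) and GelMA (0.49 ± 0.07, edgeR adjusted p = 0.00018), opposite to Ifit1. The rule by which the authors assigned reads shared by such related genes is not stated, and the separate values of Ifit1 and Ifit1bl are therefore uncertain.

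**Figure D2:**
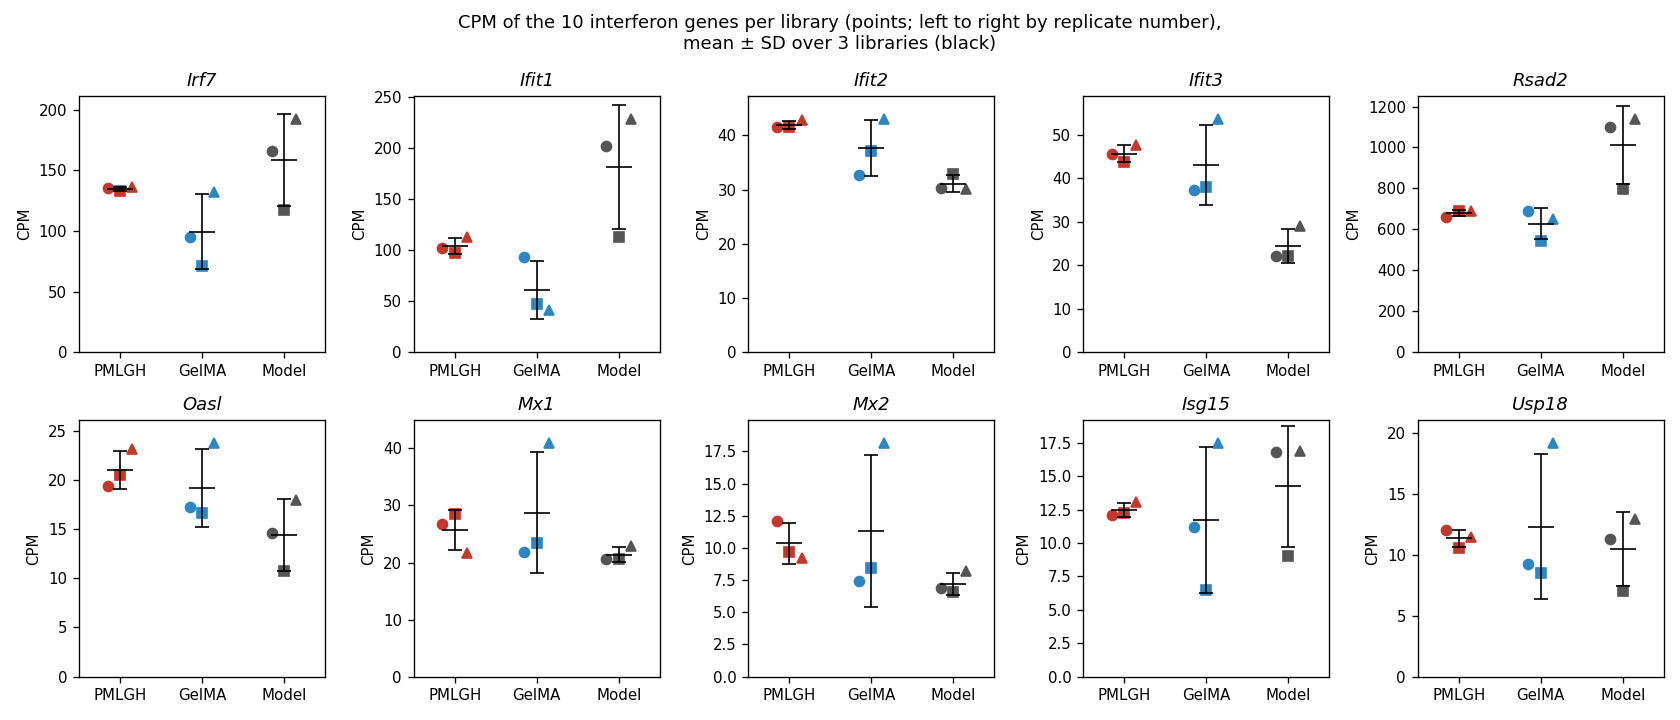
CPM of each of the 10 genes (1 panel per gene, axis from 0) in every library, with PMLGH left, then GelMA, then Model, and the mean ± SD over 3 libraries in black. Ifit3 and Ifit2 sit higher in PMLGH than in Model, Rsad2 sits lower in PMLGH and GelMA than in Model, and the GelMA points of Mx1, Mx2, Isg15 and Usp18 are stretched by GelMA 4.

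Rsad2 had 661, 690 and 690 CPM in PMLGH, 687, 543 and 653 CPM in GelMA, and 1102, 795 and 1139 CPM in Model. Every PMLGH and GelMA library was below every Model library, and Model 2 was the lowest of its group. Rsad2 fell in PMLGH against Model by 0.57 ± 0.11 on the log2 scale (edgeR adjusted p = 0.0015) and in GelMA against Model by 0.69 ± 0.11 (edgeR adjusted p = 0.00049). Both calls held in 17 of 17 alternatives. Cmpk2, a nucleotide kinase encoded next to Rsad2 that supplies its substrate, averaged 61.0 ± 1.76 CPM in PMLGH, 65.0 ± 5.72 CPM in GelMA and 87.3 ± 16.1 CPM in Model (SD, n = 3 each). It fell by 0.52 ± 0.11 in PMLGH against Model (edgeR adjusted p = 0.0020) and by 0.43 ± 0.11 in GelMA against Model (edgeR adjusted p = 0.0090).

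Oasl had 19.4, 20.5 and 23.1 CPM in PMLGH, 17.3, 16.6 and 23.8 CPM in GelMA, and 14.6, 10.7 and 18.0 CPM in Model. PMLGH lay above Model in every library, and GelMA overlapped both. Oasl rose in PMLGH against Model by 0.54 ± 0.17 (edgeR adjusted p = 0.0233). The call was lost without PMLGH 3 (0.56), PMLGH 4 (0.47), Model 1 (0.55) or Model 2 (0.34), with adjusted p of 0.0045 to 0.0947 over 17 alternatives. GelMA against Model gave 0.41 ± 0.17 (edgeR adjusted p = 0.087), and ran from 0.21, without Model 2 or without GelMA 4, to a called 0.59 without Model 5, with adjusted p of 0.0263 to 0.439. Oasl2, its neighbour and relative, rose by 0.56 ± 0.14 in PMLGH against Model (edgeR adjusted p = 0.0089) and by 0.65 ± 0.14 in GelMA against Model (edgeR adjusted p = 0.0044).

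Mx1 had 26.7, 28.5 and 21.7 CPM in PMLGH, 21.8, 23.5 and 40.9 CPM in GelMA, and 20.5, 20.6 and 22.9 CPM in Model. Mx2 had 12.1, 9.70 and 9.21 CPM in PMLGH, 7.43, 8.42 and 18.1 CPM in GelMA, and 6.87, 6.56 and 8.19 CPM in Model. In both genes GelMA 4 was far above the other GelMA libraries, and only the PMLGH and Model libraries of Mx2 did not overlap. Neither gene was called by edgeR in any comparison. Mx1 gave 0.26 ± 0.18 in PMLGH against Model (edgeR adjusted p = 0.313) and 0.43 ± 0.18 in GelMA against Model (edgeR adjusted p = 0.107). Mx2 gave 0.52 ± 0.26 in PMLGH against Model (edgeR adjusted p = 0.153) and 0.65 ± 0.26 in GelMA against Model (edgeR adjusted p = 0.0827). Mx2 in PMLGH against Model was called when GelMA 4, a library of neither group, was left out, at 0.50. It was also called with only the 6 libraries compared. Mx1 in GelMA against Model ran from 0.07 without GelMA 4 to a called 0.59 without GelMA 2, with adjusted p of 0.031 to 0.755 over 17 alternatives. Mx2 likewise ran from 0.12 without GelMA 4 to a called 0.88 without GelMA 2, with adjusted p of 0.0213 to 0.683.

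Isg15 had 12.1, 12.3 and 13.1 CPM in PMLGH, 11.2, 6.51 and 17.4 CPM in GelMA, and 16.8, 9.01 and 16.9 CPM in Model. Usp18 had 12.0, 10.6 and 11.5 CPM in PMLGH, 9.28, 8.53 and 19.2 CPM in GelMA, and 11.3, 7.07 and 13.0 CPM in Model. The modifier and its protease thus showed the same order of libraries within GelMA and within Model, and their groups overlapped. For Isg15 the 95% interval was -0.77 to 0.39 in PMLGH against Model and -0.86 to 0.30 in GelMA against Model. For Usp18 it was -0.44 to 0.68 in PMLGH against Model and -0.32 to 0.79 in GelMA against Model. In PMLGH against Model the interval of Isg15 holds a fall as large as that of Rsad2, and the interval of Usp18 a rise as large as that of Oasl.

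**Figure D3:**
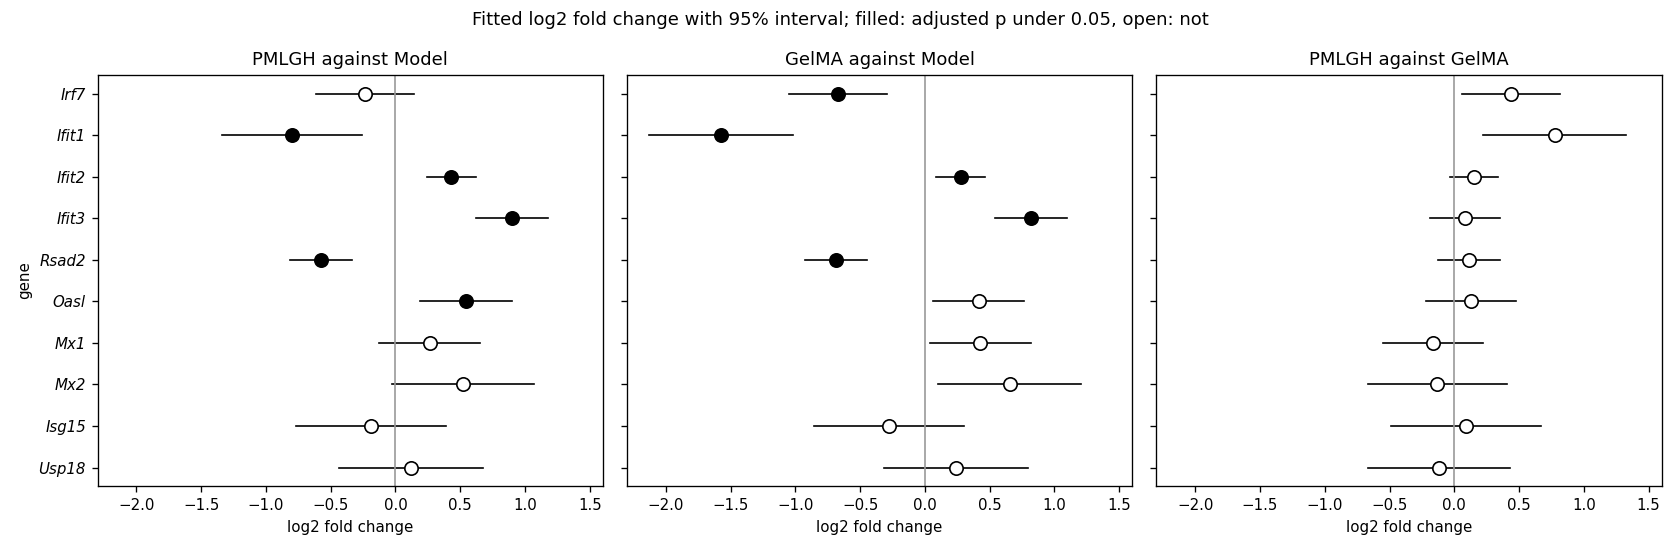
Log2 fold change of the 10 genes with its 95% interval in each of the 3 comparisons, with filled points for an edgeR adjusted p under 0.05. Ifit2 and Ifit3 lie right of 0 and Ifit1 and Rsad2 left of 0 in both comparisons with Model, and all points of PMLGH against GelMA are open.

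Over the 10 genes, 3 were higher in PMLGH against Model, where 15.7% of all genes tested were called higher, and 2 were lower, where 11.9% were called lower. Over all genes the calls were 2637 higher and 1994 lower with TMM, and 2370 higher and 2495 lower with upper-quartile scaling, which also gave 3 members higher and 2 lower. In GelMA against Model, 2 members were higher and 3 lower, against 12.7% and 9.88% of all genes. In PMLGH against GelMA edgeR called 0 members, against 1.80% of all genes higher and 1.64% lower, DESeq2 also called 0, and 2 members (Ifit1 and Irf7) had an unadjusted p under 0.05. Libraries of the compared groups did not overlap for 5 of 10 members in PMLGH against Model, where 39.4% of all genes did not overlap. The corresponding counts were 3 of 10, beside 36.6%, in GelMA against Model and 2 of 10, beside 23.7%, in PMLGH against GelMA. The median log2 fold change was 0.19 for the members and 0.017 for all genes in PMLGH against Model, 0.26 and 0.028 in GelMA against Model, and 0.10 and 0.003 in PMLGH against GelMA. The comparisons share libraries, since each group serves 2 of them.

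The 10 genes also differed between groups in how much replicate libraries spread. The coefficient of variation of CPM was 1.24% to 15.0% in PMLGH with a median of 5.32%, 12.0% to 52.2% in GelMA with a median of 33.8%, and 5.00% to 33.6% in Model with a median of 21.4%. Over 9923 genes in the same range of mean CPM, the median was 5.45% in PMLGH, 5.12% in GelMA and 7.00% in Model. The members' median was close to that of other genes in PMLGH and above it in GelMA and Model. With 3 libraries per group, this difference in spread was described and not tested.

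Within GelMA and Model, libraries lay apart on both sides of the group's mean. In GelMA, replicate 4 was the highest library for 8 of 10 members and replicate 3 lay below the group's mean for 10 of 10, while Ifit1 ran the other way and was lowest in GelMA 4. In Model, replicate 2 was the lowest library for 8 of 10 members and replicate 5 the highest for 9 of 10. Ifit2 was the exception, with its highest Model value in replicate 2. Across all genes, Model 2 was also the library least like the others of its group, with a chi-square statistic per gene averaging 33.0 against Model 1 and 27.7 against Model 5, beside 15.7 between Model 1 and Model 5. Between GelMA 3 and GelMA 4 the mean chi-square per gene was 7.56, the lowest of all pairs within a group. Yet the mean log2 deviation of the 10 members from the group's mean was -0.295 in GelMA 3 and 0.371 in GelMA 4, with -0.075 in GelMA 2. Single members differed in which GelMA libraries lay furthest apart.

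**Figure D4:**
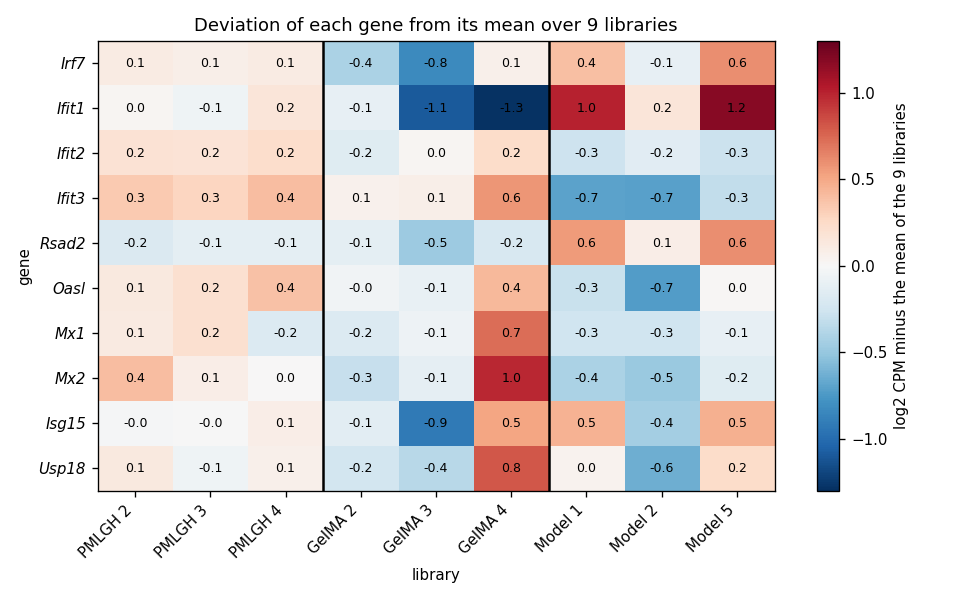
Log2 CPM of each gene minus its mean over the 9 libraries (colour and printed number), with the libraries of PMLGH, GelMA and Model separated by black lines. The 3 PMLGH columns are nearly alike, GelMA 4 is raised in every gene except Ifit1 and Rsad2, and Model 2 is lower than Model 5 in every gene except Ifit2.

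The 10 genes made 45 pairs. Over the 9 libraries Pearson's r of log2 CPM ran from -0.74 (Ifit2 and Rsad2) to 0.94 (Mx1 and Mx2), with a median of 0.41 and 31 pairs above 0. After the group means were taken out, r ran from -0.85 (Ifit1 and Ifit2) to 0.98 (Isg15 and Irf7), with a median of 0.65 and 40 of 45 pairs above 0. Oasl and Rsad2, which had r of -0.34 over the libraries, had 0.76 after this step. With the groups pooled, most members thus went up and down together from library to library. The members' mean log2 deviation per library was -0.295 to 0.371 in GelMA, -0.309 to 0.240 in Model and -0.025 to 0.017 in PMLGH. The pooled values therefore rest mainly on GelMA and Model. All pairs share the same 9 libraries, so these values are a description.

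The 8 genes whose log2 CPM was closest to the mean standardised level of the 10 members over 9 libraries were Samd9 (r = 0.96), Slfn4 (0.95), Bet1 (0.91), Ephx1 (0.89), Ifi27l2b (0.88), RT1-T24-3 (0.88), Oas2 (0.88) and Eif2ak2 (0.88). They were taken from 12842 candidates, and 5 of the 8 were also chosen on log2(FPKM + 0.1). Samd9, an antiviral factor in human cells, had 55.2, 52.9 and 52.0 CPM in PMLGH, 44.9, 42.6 and 72.3 CPM in GelMA, and 53.9, 40.0 and 56.3 CPM in Model. It was thus highest in GelMA 4 and lowest in Model 2. Slfn4, of the Schlafen family, had its highest value in GelMA 4 (563 CPM) and its lowest in GelMA 3 (375 CPM). None of the 8 was called in any comparison by edgeR.

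Taken singly, some members resembled quite different genes. Rsad2 was closest to Prkar2b, a regulatory subunit of protein kinase A (r = 0.99), and Ifit1 to Prnp, the prion protein gene (0.98). Ifit3 was closest to Podn, a small leucine-rich matrix proteoglycan (0.98), and Ifit2 to the transporter gene Abca9 (0.98). Podn rose by 1.28 ± 0.15 in PMLGH against Model and by 1.26 ± 0.15 in GelMA against Model (edgeR adjusted p = 2.68e-05 and 4.29e-05). Irf7 was closest to Rnf114 (0.98), Usp18 to Samd9 (0.99), Isg15 to Dhrs4 (0.94), Oasl to Nin (0.97), and both Mx1 (0.93) and Mx2 (0.92) to Znfx1, an antiviral RNA helicase. On log2(FPKM + 0.1) the closest gene was the same for 8 of 10 members, and it was Zfp3 for Isg15 and Tmtc1 for Oasl.

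Upstream of the members stand the sensors and adaptors of viral nucleic acid. Of 15 tested, 7 rose (46.7%, beside 15.7% of all genes) and 1 fell (6.67%, beside 11.9%) in PMLGH against Model. In GelMA against Model 5 rose (33.3%, beside 12.7%) and 1 fell (6.67%, beside 9.88%), and 0 passed in PMLGH against GelMA. The list's median log2 fold change was 0.29 in PMLGH against Model, 0.25 in GelMA against Model and 0.02 in PMLGH against GelMA. Sting1, the adaptor for cytosolic DNA, averaged 17.3 ± 1.07 CPM in PMLGH, 15.7 ± 0.63 CPM in GelMA and 11.8 ± 1.25 CPM in Model (SD, n = 3 each). It rose by 0.56 ± 0.10 in PMLGH against Model (edgeR adjusted p = 0.00096). Tlr9, the receptor for unmethylated DNA, rose by 0.74 ± 0.18 (edgeR adjusted p = 0.0056), Tlr3, that for double-stranded RNA, by 0.47 ± 0.11 (edgeR adjusted p = 0.0040), and the adaptor Myd88 by 0.34 ± 0.09 (edgeR adjusted p = 0.0087). Mavs, the mitochondrial adaptor of the RNA sensors, was the gene that fell.

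Of the 9 type I interferons listed, only Ifna1 and Ifna5 were analysed here, and Ifnb1 was not. Ifna5 had 0 counts in every library and Ifna1 had 0 to 2, so neither was tested. Of 12 genes for the receptor, its kinases and its factors, 3 rose (25%, beside 15.7% of all genes) and 0 fell in PMLGH against Model. In GelMA against Model 3 rose (25%, beside 12.7%) and 1 fell (8.33%, beside 9.88%). In PMLGH against GelMA 1 rose (8.33%, beside 1.80%) and 0 fell. The list's median log2 fold change was 0.08 in PMLGH against Model, and in GelMA against Model it was 0.028, the same as that of all genes. Stat2 rose in GelMA against Model by 0.31 ± 0.08 (edgeR adjusted p = 0.0099) and gave 0.05 ± 0.08 in PMLGH against Model. Ifnar1 rose by 0.21 ± 0.05 in PMLGH against Model (edgeR adjusted p = 0.0064), while Ifnar2 fell by 0.33 ± 0.07 in GelMA against Model (edgeR adjusted p = 0.0035). Jak1 (0.17), Tyk2 (-0.04), Irf9 (-0.18) and Irf3 (-0.11) were not called in PMLGH against Model, and none of these 4 was called in the other comparisons.

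Of the 10 enzymes of Isg15 conjugation and brakes on the pathway, 3 rose (30%, beside 15.7% of all genes) and 0 fell in PMLGH against Model. For GelMA against Model, 1 rose and 1 fell (10% each, beside 12.7% and 9.88%). In PMLGH against GelMA 2 rose (20%, beside 1.80%) and 0 fell. The list's median log2 fold change, 0.021 in PMLGH against Model and -0.014 in GelMA against Model, was near the 0.017 and 0.028 of all genes. The feedback inhibitor Socs3 rose by 2.06 ± 0.09 in PMLGH against Model (edgeR adjusted p = 5.81e-10), at 54.0 ± 1.90 CPM in PMLGH, 36.2 ± 1.05 CPM in GelMA and 13.0 ± 1.77 CPM in Model (SD, n = 3 each). Its relative Socs1 averaged 5.62 ± 0.73 CPM in PMLGH, 2.69 ± 0.23 CPM in GelMA and 2.25 ± 0.60 CPM in Model, and rose in PMLGH against Model by 1.32 ± 0.21 (edgeR adjusted p = 0.00036). Uba7, the enzyme that activates Isg15, rose by 0.28 ± 0.10 in PMLGH against Model (edgeR adjusted p = 0.0454). Both Socs genes also answer to cytokines other than interferon.

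Of 54 other interferon-induced antiviral genes, 14 rose (25.9%, beside 15.7% of all genes) and 5 fell (9.26%, beside 11.9%) in PMLGH against Model. For GelMA against Model, 7 rose (13.0%, beside 12.7%) and 4 fell (7.41%, beside 9.88%), shares near those of all genes. In PMLGH against GelMA 2 rose (3.7%, beside 1.80%) and 0 fell. The list's median log2 fold change was 0.11 in PMLGH against Model and 0.05 in each of the other comparisons. Ifitm3, which blocks viral entry, averaged 88.5 ± 1.81 CPM in PMLGH, 73.9 ± 1.71 CPM in GelMA and 54.3 ± 3.30 CPM in Model (SD, n = 3 each). It rose by 0.71 ± 0.06 in PMLGH against Model (edgeR adjusted p = 6.38e-07). Slfn2 (0.45 ± 0.07, edgeR adjusted p = 0.00025) and the GTPase Ifi47 (0.39 ± 0.07, edgeR adjusted p = 0.00084) rose as well. The ISRE core was present in 30 of the 53 windows of this list that matched (56.6%), and in 9 of 16 windows of the interferon-gamma list (56.2%).

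No tested gene of the interferon-gamma side fell. Of 15 tested, 13 rose (86.7%, beside 15.7% of all genes) and 0 fell (beside 11.9%) in PMLGH against Model. In GelMA against Model 7 rose (46.7%, beside 12.7%) and 0 fell (beside 9.88%). In PMLGH against GelMA 5 rose (33.3%, beside 1.80%) and 0 fell (beside 1.64%). The list's median log2 fold change was 0.72 in PMLGH against Model, 0.26 in GelMA against Model and 0.29 in PMLGH against GelMA. The guanylate-binding protein Gbp2 averaged 72.7 ± 2.24 CPM in PMLGH, 49.4 ± 2.93 CPM in GelMA and 32.7 ± 1.92 CPM in Model (SD, n = 3 each), a rise of 1.15 ± 0.07 in PMLGH against Model (edgeR adjusted p = 1.42e-08). Gbp5 (1.17 ± 0.13), Ciita, the master factor of MHC class II (1.12 ± 0.13), and Igtp (0.72 ± 0.08) also rose in that comparison. Ifng had 17, 4 and 12 counts in PMLGH 2, 3 and 4, 0, 0 and 1 in GelMA 2, 3 and 4, and 0, 3 and 0 in Model 1, 2 and 5. PMLGH was above the other groups in each library, but these counts were under the filter and were not tested.

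Irf1, a transcription factor induced by both interferon types, averaged 90.8 ± 4.21 CPM in PMLGH, 73.7 ± 1.34 CPM in GelMA and 54.9 ± 0.83 CPM in Model (SD, n = 3 each). It rose in PMLGH against Model by 0.73 ± 0.06 (edgeR adjusted p = 2.71e-07) and in PMLGH against GelMA by 0.30 ± 0.06 (edgeR adjusted p = 0.0058). The chemokines of the receptor Cxcr3 were highest in PMLGH too. Cxcl10 had 14.4, 13.5 and 12.0 CPM in PMLGH, 5.03, 4.70 and 5.40 CPM in GelMA, and 1.27, 2.03 and 1.23 CPM in Model. All 4 genes of that list rose in both comparisons with Model, beside 15.7% of all genes in PMLGH and 12.7% in GelMA. Cxcl9 and Cxcl10 also rose in PMLGH against GelMA (50% of the list, beside 1.80% of all genes). Cxcl10 rose by 3.13 ± 0.19, Cxcl9 by 3.09 ± 0.25, Cxcl11 by 4.63 ± 0.39 and Cxcr3 by 1.06 ± 0.16 in PMLGH against Model (edgeR adjusted p = 1.48e-08, 3.51e-07, 5.80e-07 and 0.00022).

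**Figure D5:**
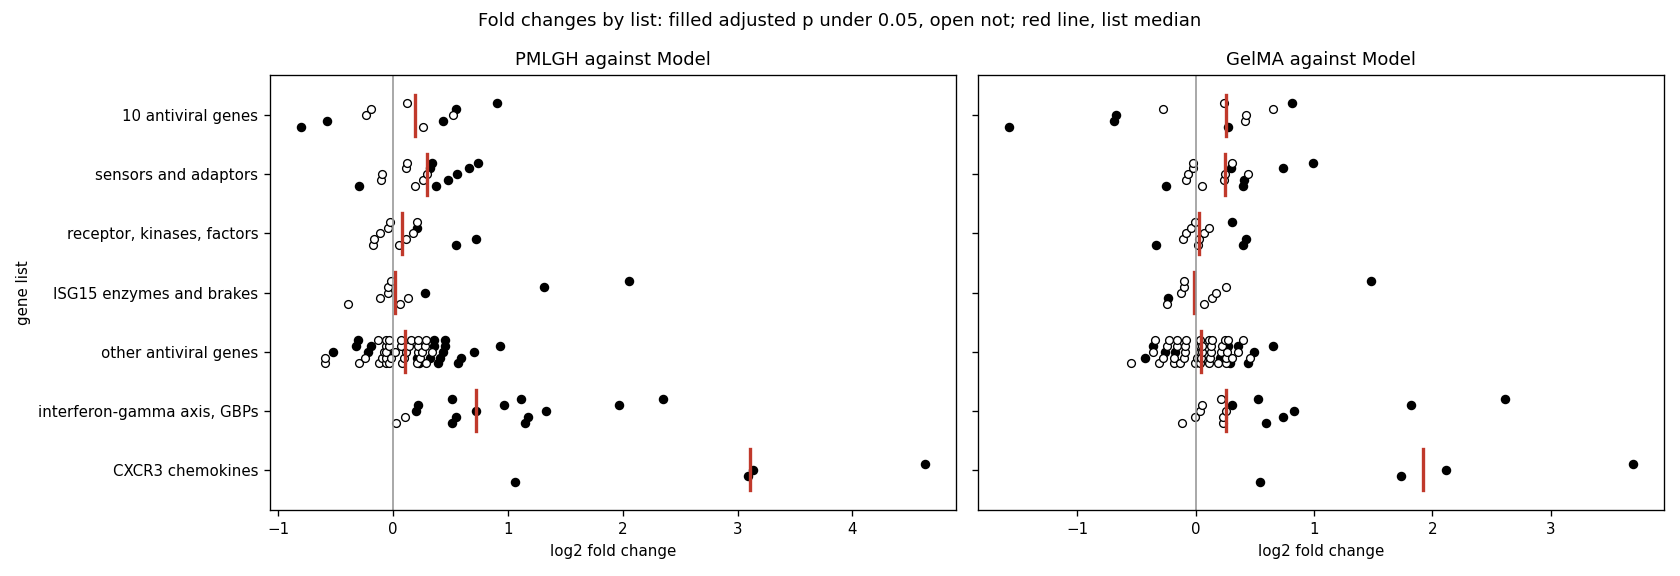
Log2 fold change of each tested gene in the 10 antiviral genes and 6 related lists, in PMLGH against Model (left) and GelMA against Model (right), with filled points for an edgeR adjusted p under 0.05 and a red line at the list's median. The 10 antiviral genes lie on both sides of 0, with a median of 0.19 in PMLGH against Model, and the CXCR3 list lies to the right, with a median of 3.11.

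Summed markers of erythroid cells, bone cells and muscle differed from Model in both PMLGH and GelMA, with no overlap of libraries. Of all genes, 15.7% were called higher and 11.9% lower in PMLGH against Model, and 12.7% and 9.88% in GelMA against Model. All 11 erythroid markers (such as Hba-a1 and Hbb) fell in both comparisons with Model, and their summed level was 57400 to 66400 CPM in PMLGH, 58630 to 66660 CPM in GelMA and 77400 to 85760 CPM in Model. Ifit1 and Rsad2 fell alongside them. Of 12 bone cell markers (such as Col1a1 and Col1a2) 8 rose in PMLGH against Model and all 12 in GelMA against Model. Their sums were 34760 to 40220 CPM in PMLGH, 33000 to 36570 CPM in GelMA and 16150 to 20490 CPM in Model. Most of these sums was Col1a1, averaging 20640, 18390 and 9734 CPM in PMLGH, GelMA and Model, and Col1a2, averaging 12470, 10770 and 5362 CPM. Dmp1, Sost, Mepe and Spp1 were not called in PMLGH against Model. Of 11 muscle markers (such as Acta1 and Mylpf) 9 rose in PMLGH against Model and all 11 in GelMA against Model, with sums of 903 to 1262 CPM in PMLGH, 2638 to 3208 CPM in GelMA and 545 to 830 CPM in Model. GelMA 4, highest of its group for most antiviral genes, also had its highest muscle, plasmacytoid dendritic, macrophage and B cell sums and its lowest neutrophil and erythroid sums. Its erythroid (58630 CPM), plasmacytoid (540 CPM) and B cell (565 CPM) sums were close to those of GelMA 3 (58660, 533 and 551.5 CPM).

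The next shares stand beside 15.7% of all genes higher and 11.9% lower in PMLGH against Model, and 12.7% and 9.88% in GelMA against Model. Of 13 macrophage and monocyte markers tested (such as Lyz2 and C1qa), 9 rose in PMLGH against Model (69.2%). In GelMA against Model 5 rose (38.5%) and 1 fell (7.69%). Their sums were 10080 to 10880 CPM in PMLGH, 8240 to 9026 CPM in GelMA and 8176 to 10300 CPM in Model. Lyz2 made up most of these sums, averaging 8793, 7177 and 7864 CPM in PMLGH, GelMA and Model. Lyz2 was called in neither comparison with Model. Plasmacytoid dendritic cells are the classic producers of type I interferon. Of their 11 tested markers (list headed by Spib and Irf8), 5 rose (45.5%) and 1 fell (9.09%) in PMLGH against Model. In GelMA against Model 5 rose (45.5%) and 0 fell. Those that rose in PMLGH were Siglech, Tcf4, Tlr9, Pacsin1 and Runx2, and Bcl11a fell. Runx2 is also on the bone list. In GelMA against Model Cox6a2 was called and Siglech was not (0.22 ± 0.15, edgeR adjusted p = 0.315). Cox6a2 rose by 1.74 ± 0.25 there and was called lower in PMLGH against GelMA (-1.135 ± 0.24). All 11 muscle markers were called in these same directions, so the rise of Cox6a2 cannot be assigned to plasmacytoid cells. Spib was called in neither comparison with Model. Sums of this list were 446 to 498 CPM in PMLGH, 488 to 540 CPM in GelMA and 433 to 495 CPM in Model. Of 10 T and NK cell markers (such as Nkg7 and Cd4) 5 rose in PMLGH against Model (50%) and 6 in GelMA against Model (60%). Their sums were 363 to 380 CPM in PMLGH, 322 to 348 CPM in GelMA and 257 to 313 CPM in Model. Cd4 was the largest part of these sums, averaging 203.4, 174.8 and 145.5 CPM in PMLGH, GelMA and Model. Cd3e averaged only 13.4, 9.75 and 7.15 CPM, so the sums follow Cd4 more than the Cd3 genes. Of 12 neutrophil markers (such as S100a8 and S100a9) 4 rose in PMLGH against Model (33.3%). In GelMA against Model 2 rose (16.7%, near the 12.7% of all genes). Their sums were 13330 to 17040 CPM in PMLGH, 13160 to 14180 CPM in GelMA and 11390 to 15110 CPM in Model. Of 9 B cell markers (such as Cd79a and Cd79b) 1 fell in PMLGH against Model (11.1%, near the 11.9% of all genes). In GelMA against Model 5 rose (55.6%). Their sums were 314 to 365 CPM in PMLGH, 444 to 565 CPM in GelMA and 332 to 506 CPM in Model. The sums of the macrophage, neutrophil, plasmacytoid and B cell lists overlapped between Model and both PMLGH and GelMA, and those of the T and NK list did not. Model 2, the library lowest in most antiviral genes, had the highest sum of its group for the macrophage, neutrophil, plasmacytoid, T and NK and B cell lists. No marker was at 0 in all libraries, and the part of these cells in the antiviral levels was not tested.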

How the data were processed

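Tibia RNA was measured in 9 libraries, 3 per group, and all 9 columns of each table matched 1 label. Raw counts, 1 row per gene symbol, were deposited by the authors. The deposited FPKM were proportional to the counts within a relative tolerance of 0.0001 for 22798 of 22798 genes with counts, so they add no independent measurement. The submitters' processing notes name DESeq2 and R 3.2.0. Aligner, build, annotation and strand of counting were not given in the sources used here; sense and antisense reads cannot be separated. No pair of replicate libraries agreed within sampling noise by a chi-square test of their counts.

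Genes were kept by filterByExpr, scaled by TMM and fitted with edgeR 4.0.16 (quasi-likelihood, 1 mean per group, 6 residual degrees of freedom, R 4.3.3). Tests were two-sided, and adjusted p under 0.05 counted as a call. DESeq2 1.42.0, limma 3.58.1 on log2(FPKM + 0.1) or log2(FPKM + 1), other scalings, no filter, other sample sets and the loss of each library were alternatives. The test was run on simulated counts with the same spread for every gene and group. That run therefore cannot show how the test behaves with the unequal spread of the members. Its pass mark was changed after the first result had missed it.

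Members and lists were chosen with earlier results of these data known. Named were all members, fixed pathway genes (1 is not reported here), up to 4 called genes of smallest p in PMLGH against Model per list, the genes most like the members and 2 markers per list; neighbours of members (Ifit1bl, Cmpk2 and Oasl2) and Mavs were added after their values were seen.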

Additional observations from a re-analysis of the deposited data

How the results depend on the processing

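Of the single-gene log2 fold changes under alternatives, 470 kept their direction and their side of the threshold, 25 lost a call, 17 gained one and 8 reversed. Members called in GelMA against Model numbered 5, but 8 with no filter on low counts and 3 with limma on log2(FPKM + 0.1) or log2(FPKM + 1), while all genes called numbered 3804, 4025, 3214 and 3219 in these settings. In PMLGH against GelMA 0 members were called, but 2 with no filter, 1 with only the 6 libraries compared and 2 (Ifit1 and Irf7) with the replicate number as a block. All genes called there numbered 578, against 1059 with only the 6 libraries, 384 with limma on log2(FPKM + 0.1) and 1037 with the block. The numbers 2, 3 and 4 were not taken to pair PMLGH with GelMA, as same-numbered deviations correlated at 0.014, 0.027 and -0.008, although PMLGH 2 and PMLGH 3 correlated best with their own number and PMLGH 4 with GelMA 2. The causes were not tested.

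With 1 library left out, members called ran from 3 to 6 in PMLGH against Model, 3 to 7 in GelMA against Model and 0 to 1 in PMLGH against GelMA, and genes called in the last from 303 to 1050. Uncalled values changed sign: Usp18 gave -0.13 to 0.29 in PMLGH against Model (negative without Model 2) and -0.25 to 0.42 in GelMA against Model (negative without GelMA 4, and -0.0092 without Model 2). In PMLGH against GelMA, Mx1 ran from -0.33 to 0.18, Mx2 from -0.36 to 0.38 and Usp18 from -0.33 to 0.35, each positive without GelMA 4. There Ifit3 ran from -0.0054 (without GelMA 2) to 0.27 and Isg15 from -0.20 (without GelMA 3) to 0.49. Each count over all genes in the comparisons with Model stayed within 1.5 times. Ifng and Ifna1 were too sparse to test at this depth.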
